A study of Oryza sativa with 12 samples.

Results

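Of 55986 rice genes measured in culms, the jointed stems of the plant, 4 stood at 5 FPKM or more in each of the 3 double-KO libraries and under 1 FPKM in each of the 9 other libraries. FPKM counts the sequenced fragments of a gene per kilobase of its length and per mega of fragments in the library. The 4 genes are LOC_Os09g36680, LOC_Os10g26240, LOC_Os02g46190 and LOC_Os02g29160. They were chosen by these FPKM values, so their levels in double-KO libraries against the others are a description and were not tested. Neither the deposited table nor the reference used here pairs the identifiers with gene names (0 of 55986 matched), so the genes have no name or known role here.

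Poly(A) RNA had been sequenced from heading-stage culms of Zhonghua 11, a japonica cultivar, with 3 libraries in each of 4 groups: a line labelled for both TAC4L and TAC4 (double-KO), a TAC4-KO line, a TAC4L-KO line and the wild type (WT) of the same cultivar. The titles call the 3 mutant lines knockouts and the genotype field calls them knockdowns. The labels give neither the edits nor the number of independent lines, and it is not stated whether replicates came from different plants, so a p-value here reflects the spread among libraries, and that spread could be technical.

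TAC4 is known as a nuclear protein that controls tiller angle, the spread of the shoots, through shoot gravitropism and auxin. The series title concerns brittle culms of the double mutant. A culm gains its strength from fibre and vascular cells that lay down a cellulose-rich secondary wall. A gene that is silent in one state and active in another is often read as a marker of a cell type, an organ or a stress. In a rice locus identifier the digits after Os give the chromosome and the number after g gives the order along it.

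Between 24717 and 26972 genes were above 0 in a library, and no pair of libraries held identical values (66 pairs compared). Total read counts were not used here, and relative depth, worked out from the FPKM steps of low genes, spanned 2.58-fold, with WT replicate 1 the shallowest and double-KO replicate 2 the deepest. TAC4 (LOC_Os02g25230) stood at 13.2 to 16.5 FPKM in double-KO, 9.13 to 13.5 in TAC4-KO, 8.22 to 9.83 in TAC4L-KO and 4.75 to 7.32 in WT, and TAC4L (LOC_Os04g19140) was under 1 FPKM throughout, so whole-gene FPKM does not check the labels. CESA4, a secondary wall cellulose synthase used to check the tissue, was present in every group but far lower in double-KO. It stood at 15.8 to 37.1 FPKM in double-KO, 168 to 487 in TAC4-KO, 358 to 588 in TAC4L-KO and 192 to 338 in WT. CESA7 and CESA9, of the same kind, had double-KO medians of 17.8 and 34.2 FPKM, against 283 and 315 in WT. For each of these genes every other library was above the double-KO libraries. The check thus found unlike levels between groups, and the reason was not tested.

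LOC_Os09g36680, on chromosome 9, was by far the most abundant of the 4. It had 1117, 4993 and 3957 FPKM in double-KO replicates 1 to 3. In TAC4-KO it had 0, 0.0542 and 0.687 FPKM, it was listed at 0 in all 3 TAC4L-KO libraries, and in WT it had 0, 0 and 0.0882 FPKM. The bounds themselves keep double-KO from overlapping the other groups. The lowest double-KO library was 1628 times the highest of the 9 others. Within a double-KO library it ranked 47, 6 and 10 among the 24717, 25572 and 24822 genes above 0, and it took 0.171%, 0.772% and 0.596% of the FPKM total. It was thus among the most abundant transcripts of the double-KO culm while 6 of the 9 other libraries listed it at 0. On the log2(FPKM + 1) scale its mean in double-KO stood 11.18 above TAC4-KO, 11.45 above TAC4L-KO and 11.41 above WT, with an SD of 1.16 between double-KO libraries (n = 3).

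LOC_Os10g26240, on chromosome 10, varied most between double-KO libraries. It had 88.6, 49.5 and 9.48 FPKM in double-KO replicates 1 to 3. In TAC4-KO it had 0.113, 0 and 0.0892 FPKM, and it was listed at 0 in all 3 TAC4L-KO and all 3 WT libraries. Double-KO replicate 3 came within a factor of 2 of the bound of 5 FPKM. The log2 difference was 5.08 from TAC4-KO and 5.18 from TAC4L-KO and from WT, with an SD of 1.6 between double-KO libraries.

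LOC_Os02g46190, on chromosome 2, was moderate and steadier. Its FPKM values were 11.1, 7.18 and 10.8 in double-KO, and 0, 0 and 0.184 in TAC4-KO. Every TAC4L-KO and WT library listed it at 0, so TAC4-KO replicate 3 was the one library outside double-KO with any fragment. The log2 difference was 3.32 from TAC4-KO and 3.4 from TAC4L-KO and from WT, with an SD of 0.32 between double-KO libraries.

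LOC_Os02g29160, also on chromosome 2, was expressed at a low level everywhere, so the words "on" and "off" do not describe it. It had 5.44, 5.62 and 5.26 FPKM in double-KO. In TAC4-KO it had 0.508, 0.748 and 0.995 FPKM, in TAC4L-KO 0.0386, 0.0492 and 0.687 FPKM, and in WT 0.131, 0.318 and 0.341 FPKM. It was above 0 in all 9 other libraries, and its lowest double-KO value was 5.29 times its highest value elsewhere. The highest value elsewhere was 18.3% of its double-KO mean, against 0.0205% for LOC_Os09g36680. Its log2 difference was 1.89 from TAC4-KO, 2.39 from TAC4L-KO and 2.35 from WT.

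**Figure D1:**
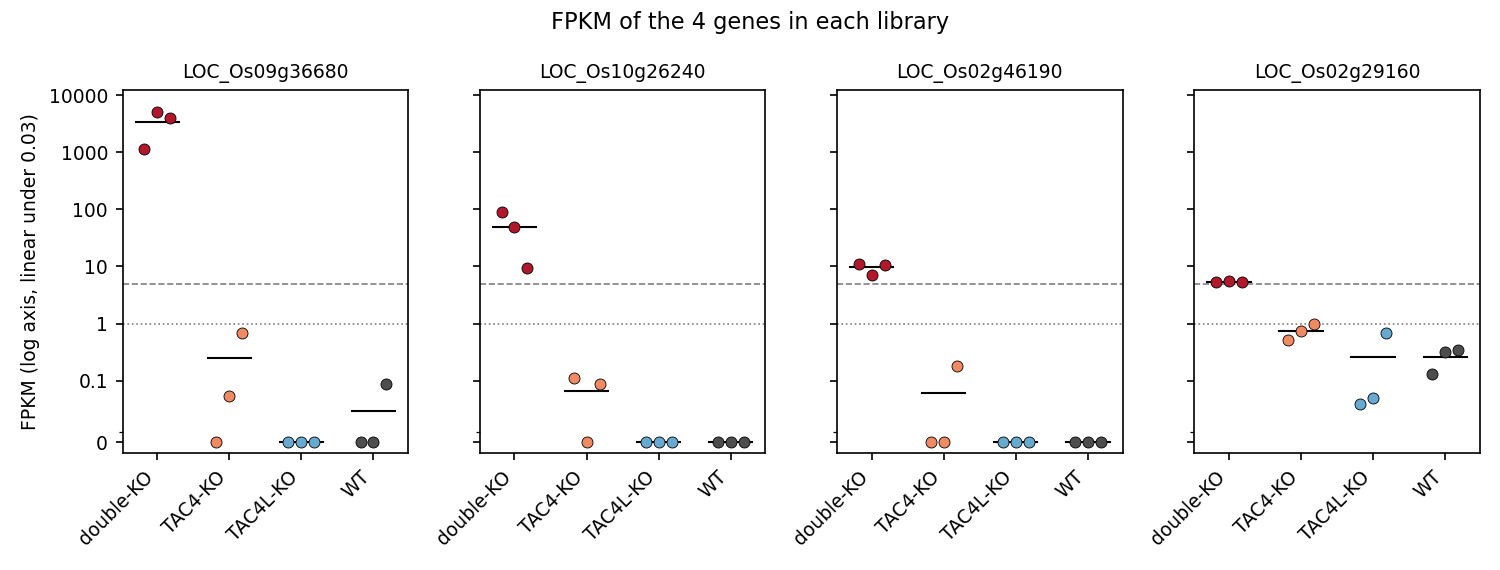
FPKM of the 4 genes in each of the 12 libraries (log axis, linear under 0.03 FPKM), with 1 point per library in replicate order, short lines at the group means, a dashed line at 5 FPKM and a dotted line at 1 FPKM. LOC_Os09g36680 stands at 1117 FPKM or more in every double-KO library, and LOC_Os02g29160 sits just above the dashed line in double-KO and just under the dotted line in TAC4-KO replicate 3.

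The depth behind the low values could be read from the table. For the 4 genes, values under 150 fragments were whole multiples of what 1 fragment was worth, within 0.00538 of a fragment. Fragments could thus be counted as the smallest whole numbers that give these values (the true numbers may be multiples of them). Larger values, among them most of those in double-KO, were rounded to the nearest whole number and are outside that distance. By this count LOC_Os09g36680 had 17 fragments in the 3 TAC4-KO libraries, 16 of them in replicate 3, none in TAC4L-KO and 2 in WT. LOC_Os10g26240 had 1433 fragments in double-KO libraries and 2 elsewhere, both in TAC4-KO. LOC_Os02g46190 had 393 in double-KO and 3 elsewhere, all in TAC4-KO replicate 3. A listed 0 is therefore a value at a finite depth: at 3 fragments per library, a 0 allows up to 0.133 to 0.284 FPKM for LOC_Os09g36680, up to 0.275 to 0.591 for LOC_Os10g26240 and up to 0.189 to 0.405 for LOC_Os02g46190, depending on the library. These limits cover counting error only. LOC_Os02g29160 had 1201 fragments in double-KO, 168 in TAC4-KO, 51 in TAC4L-KO and 59 in WT.

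None of the 4 was listed at 0 in every library outside the double-KO. Of 24077 genes listed at 0 in all 9 other libraries, 0 reached 5 FPKM in each double-KO library. Above 0 in each double-KO library were 23 of them, and the highest of their lowest double-KO values was 0.269 FPKM. All 4 genes thus had at least 1 fragment outside double-KO, in TAC4-KO for each of them. In bulk RNA, a change in the share of cells that express a gene and a change in RNA per cell cannot be told apart.

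**Figure D2:**
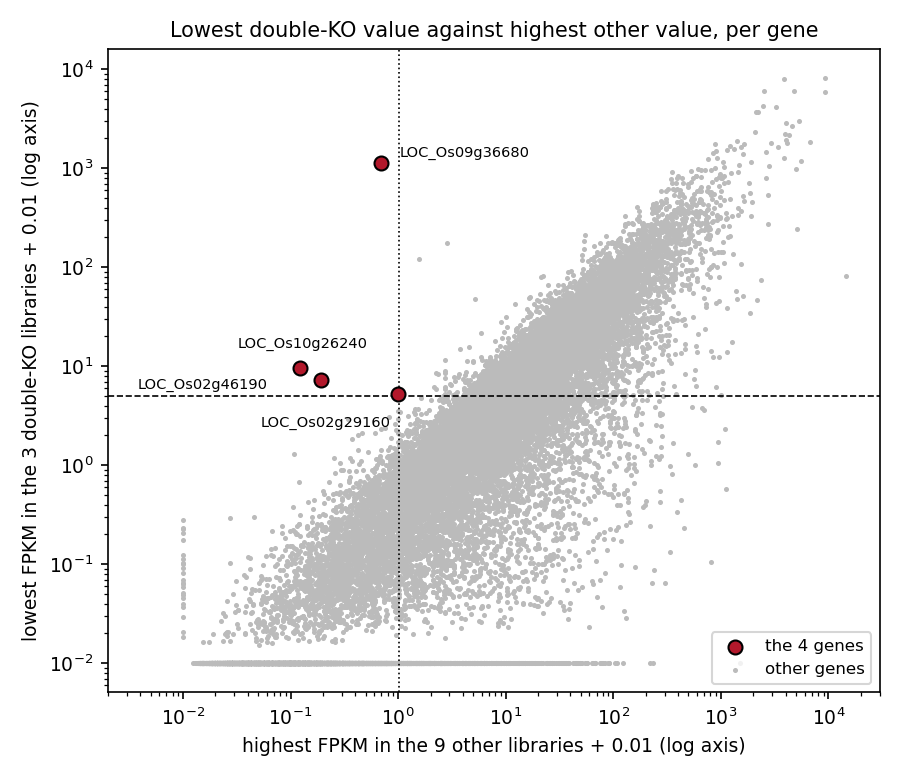
Lowest FPKM among the 3 double-KO libraries against the highest FPKM among the 9 other libraries, for the 31932 genes above 0 on at least 1 axis, with 0.01 FPKM added on both log axes. The dashed line is at 5 FPKM and the dotted line at 1 FPKM, and the 4 genes lie in the upper left quadrant, LOC_Os09g36680 far from any other gene and LOC_Os02g29160 at its corner.

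The bounds were strict on each side. At least 5 FPKM in each double-KO library held for 10622 genes and under 1 FPKM in each other library for 34756, and both together held for the 4. The same bounds turned to another group, each against the 9 libraries outside it, found 0 genes for TAC4-KO, 0 for TAC4L-KO and 1 for WT. The WT count was 23 with a lower bound of 2 FPKM and 16 without TAC4L-KO replicate 1, and the double-KO count was 7 without double-KO replicate 3.

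Just inside the bounds lay LOC_Os02g29160 on both sides, at 5.26 FPKM in double-KO replicate 3 and 0.995 FPKM in TAC4-KO replicate 3. Just outside the lower bound lay LOC_Os01g47130, with 4.61, 5.84 and 5.19 FPKM in double-KO and at most 0.992 FPKM elsewhere. LOC_Os03g25120, LOC_Os06g40780, LOC_Os01g72370 and LOC_Os03g15340 followed, with lowest double-KO values of 3.52, 3.04, 2.94 and 2.91 FPKM. Of these, LOC_Os01g72370 was listed at 0 in every TAC4L-KO and WT library and had 5.05, 16.8 and 2.94 FPKM in double-KO. LOC_Os03g15340 spread as widely, at 2.91, 6.66 and 17.3 FPKM in double-KO.

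On the other side, LOC_Os06g21369 missed the upper bound by little. Its values were 149.6, 121.6 and 136.8 FPKM in double-KO, and its highest value elsewhere was 1.55 FPKM in TAC4L-KO replicate 2. YSL2 (LOC_Os02g43370), a transporter of metal-nicotianamine complexes in the phloem, had 7.76, 13.9 and 6.14 FPKM in double-KO and up to 2.15 FPKM elsewhere. LOC_Os05g23440, LOC_Os07g31870 and LOC_Os03g31750 reached 2.22, 2.24 and 2.34 FPKM outside double-KO. The values near the bounds were not tested.

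The 4 genes differed in how even they were among double-KO libraries. The highest double-KO library was 9.35 times the lowest for LOC_Os10g26240, 4.47 times for LOC_Os09g36680, 1.55 times for LOC_Os02g46190 and 1.07 times for LOC_Os02g29160. The median of this ratio was 1.35 over the 10622 genes at 5 FPKM or more in each double-KO library. Only 0.0659% of those genes were at least as spread as LOC_Os10g26240 and 0.311% as LOC_Os09g36680, whereas 25.4% were at least as spread as LOC_Os02g46190 and 96.2% as LOC_Os02g29160. The most abundant pair was thus far more uneven than most genes, and the order of libraries differed between them: LOC_Os09g36680 was lowest in replicate 1 and LOC_Os10g26240 in replicate 3.

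**Figure D3:**
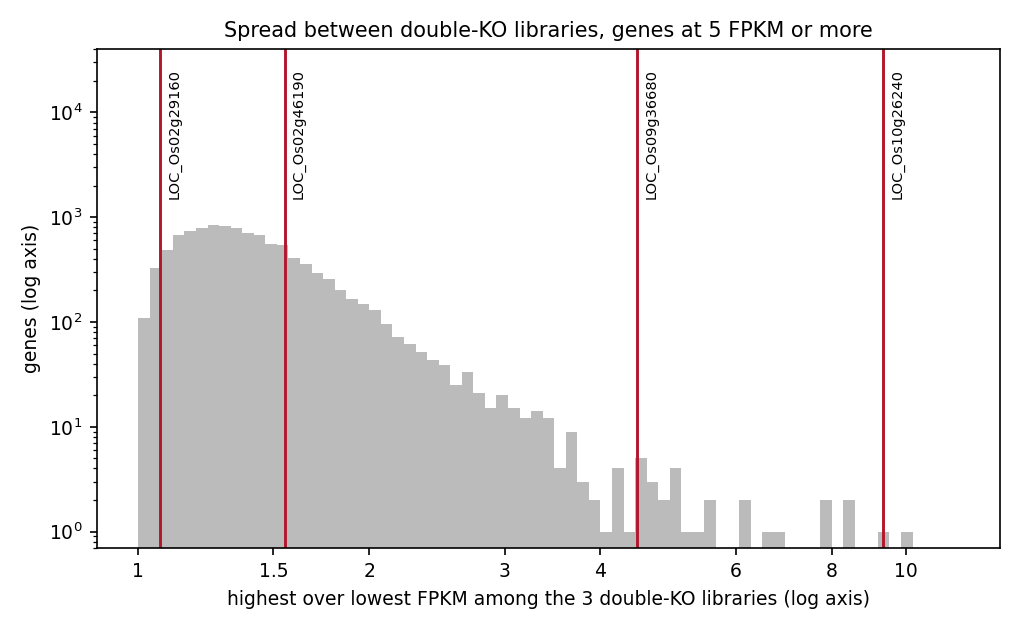
Number of genes (log axis) by the ratio of the highest to the lowest FPKM among the 3 double-KO libraries (log axis), over the 10622 genes at 5 FPKM or more in each of them. Red lines mark the 4 genes, with LOC_Os09g36680 at 4.47 and LOC_Os10g26240 at 9.35 in the far right tail and LOC_Os02g29160 at 1.07 near the left edge.

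Between the groups that the bounds did not contrast, the comparisons of the 4 genes say little. The bounds hold every such value under 1 FPKM, and all 4 genes passed the filter of a mean of 1 FPKM over the 12 libraries only through their double-KO values, so the choice of the genes left little room for a call. Whether either single mutant moved the genes toward the double-KO is therefore not answered by these counts. In TAC4-KO against WT, limma called 0 of the 4 at an adjusted p under 0.05 (1 at an unadjusted p under 0.05), where 34.9% of all 19184 genes tested were called. In TAC4L-KO against WT limma called 0 (0 unadjusted), against 7.18% of all genes, and in TAC4-KO against TAC4L-KO it called 0 (1 unadjusted), against 3.04%. The shares over all genes are for genes without such bounds.

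LOC_Os02g29160 gave the unadjusted result in both comparisons. The bounds hold every value compared here under 1 FPKM, so these results cannot show whether a single mutant moved the gene. The 3 TAC4-KO libraries lay above all 3 WT libraries, with a log2 difference of 0.47 (SE 0.21, limma adjusted p = 0.11, and 0.081 to 0.28 over the alternatives). How often these groups lie apart over all genes was not counted, so no weight is put on that order. The difference of TAC4-KO from TAC4L-KO was 0.51 (SE 0.21, limma adjusted p = 0.19, and 0.042 to 0.51 over the alternatives). TAC4L-KO replicate 3, at 0.687 FPKM, stood above the other two, and without it the difference was 0.74 with the lowest of those p-values, on values that the bounds still cap. In TAC4L-KO against WT the difference was -0.04 (limma adjusted p = 0.92), and its sign changed under 4 alternatives. For LOC_Os09g36680 the difference between TAC4-KO and WT was 0.24 (SE 0.43, limma adjusted p = 0.7), and it rested on 16 fragments in TAC4-KO replicate 3. That SE comes from the spread over all 12 libraries, to which double-KO gave most (SD 1.16, against 0.42 in TAC4-KO and 0.07 in WT). With the 2 compared groups alone the limma adjusted p was 0.46.

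TAC4-KO replicate 3 was the highest of the 9 other libraries for 3 of the 4 genes, and TAC4-KO replicate 1 was the highest for LOC_Os10g26240. Over all 19184 genes tested, TAC4-KO replicate 3 was the highest of the 9 in 13.9%. Among the 1475 tested genes with every double-KO library above the 9 others it was the highest in 45.8%. The part of that library in the small TAC4-KO values of the 4 genes was not tested.

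The identifiers place 2 of the genes on chromosome 2, which holds 9.6% of all genes in the table, 1 on chromosome 9 (6.09%) and 1 on chromosome 10 (6.27%). The pair on chromosome 2 lay far apart, and none of the 4 had another of them within 100 locus numbers. The genes were therefore not a single cluster. Their direct neighbours were examined next, a choice made after the values were seen.

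Every direct neighbour that could be tested was higher in double-KO than in WT. Of the 8 loci next to the 4 genes, 3 were listed at 0 in all 12 libraries, and all 5 others passed limma at an adjusted p under 0.05, where 20.1% of all genes tested were called higher and 27.3% lower. Under each of 13 alternatives all 5 were called higher than WT. Against TAC4-KO, 3 of the 5 were called higher (4.88% of all genes were called higher and 10.1% lower): LOC_Os10g26250 (log2 4.68), LOC_Os02g46180 (2.73) and LOC_Os02g29150 (1.41). LOC_Os02g46180 lost that call without double-KO replicate 1 or 3 or TAC4-KO replicate 1 or 2 (limma adjusted p = 0.051 to 0.071). LOC_Os09g36690 (log2 0.83, limma adjusted p = 0.072) and LOC_Os09g36670 (0.47, limma adjusted p = 0.12) were not called against TAC4-KO, but both were under the other scalings, and LOC_Os09g36690 was also without TAC4-KO replicate 3 (1.14). Against TAC4L-KO, 4 of the 5 were called higher (11.6% of all genes higher and 23.4% lower), and LOC_Os09g36670 was not (0.43, limma adjusted p = 0.099), though it was under both other scalings. None of these loci has a name in the sources used here.

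LOC_Os02g46180, next to LOC_Os02g46190, had 413.1, 331.1 and 418.6 FPKM in double-KO. The TAC4-KO libraries had 31.3, 34.7 and 171.8 FPKM, the TAC4L-KO libraries 28.6, 5.76 and 24.2 FPKM, and the WT libraries 13.4, 12.2 and 6.16 FPKM. The double-KO libraries lay above all others, and TAC4-KO replicate 3 stood highest outside them, as it did for LOC_Os02g46190. The log2 difference was 5.13 for double-KO against WT (SE 0.65, limma adjusted p = 0.00011), and 2.4 for TAC4-KO against WT (SE 0.65, limma adjusted p = 0.015), comparisons that share the WT libraries. Without TAC4-KO replicate 3 or WT replicate 3 the TAC4-KO difference was 1.62 or 2.09 and missed the threshold (limma adjusted p = 0.051 and 0.05). LOC_Os02g46190 stood at 2.7%, 2.17% and 2.58% of the FPKM of LOC_Os02g46180 in double-KO replicates 1 to 3, a near constant share. In TAC4-KO replicate 3 it stood at 0.107%, on 3 fragments, with LOC_Os02g46180 at 171.8 FPKM. The bounds hold LOC_Os02g46190 under 1 FPKM there, so a share as high as in double-KO could not have been seen.

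LOC_Os10g26250, next to LOC_Os10g26240, followed it in order but not in proportion. It had 101.04, 67.1 and 47.9 FPKM in double-KO. The TAC4-KO libraries had 1.22, 0.479 and 5.19 FPKM, the TAC4L-KO libraries 0, 0 and 0.106 FPKM, and the WT libraries 1.95, 1.48 and 0.39 FPKM. Both genes were highest in double-KO replicate 1 and lowest in double-KO replicate 3, and LOC_Os10g26240 stood at 87.7%, 73.7% and 19.8% of its neighbour's FPKM in replicates 1 to 3. Unlike LOC_Os10g26240, the neighbour had fragments in every WT library. Its log2 difference was 5.01 for double-KO against WT (SE 0.46, limma adjusted p = 2.2e-05), and 0.33 for TAC4-KO against WT (SE 0.46, limma adjusted p = 0.6), a sign that turned without TAC4-KO replicate 3 (-0.26).

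The loci on either side of LOC_Os09g36680 moved far less than the gene between them. LOC_Os09g36690 had 17.9, 19.9 and 14.5 FPKM in double-KO. The TAC4-KO libraries had 7.87, 6.78 and 14.8 FPKM, the TAC4L-KO libraries 2.02, 3.15 and 3.74 FPKM, and the WT libraries 1.37, 2.35 and 2.76 FPKM. Its log2 difference was 2.56 for double-KO against WT (SE 0.29, limma adjusted p = 5.8e-05) and 1.73 for TAC4-KO against WT (SE 0.29, limma adjusted p = 0.0015). It was thus raised in TAC4-KO culms, where the bounds hold LOC_Os09g36680 under 1 FPKM. LOC_Os09g36670 averaged 27.6 ± 1.56 FPKM in double-KO and 16.7 ± 4.34 in WT (SD, n = 3 each), a log2 difference of 0.72 (SE 0.19, limma adjusted p = 0.0091). Neither neighbour shared the spread of LOC_Os09g36680, whose replicate 1 was the lowest of the double-KO libraries.

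LOC_Os02g29150, next to LOC_Os02g29160, averaged 13.8 ± 4 FPKM in double-KO and 4.47 ± 1.47 in WT (SD, n = 3 each), a log2 difference of 1.44 (SE 0.24, limma adjusted p = 0.00061). In TAC4-KO it averaged 4.51 ± 0.944 FPKM, a log2 difference of 0.03 from WT that did not pass (limma adjusted p = 0.94) and turned negative in 3 of the alternatives. The locus 30 numbers further on, LOC_Os02g29190, averaged 14.7 FPKM in double-KO and 1.62 in WT (log2 2.6, limma adjusted p = 0.00011). Since strand setting and annotation are unknown here, reads that a gene shares with an overlapping neighbour or a near-identical copy cannot be told apart.

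The windows of 100 locus numbers on each side of the genes held 77 other loci, of which 30 were listed at 0 in all libraries and 27 were tested. Of the 27, 12 (44.4%) were higher in double-KO than in WT and 1 was lower, where 20.1% of all genes tested were higher and 27.3% lower, with a median log2 difference of 0.09 against -0.1 over all genes tested. The 12 include the 5 direct neighbours already given, so the 2 counts are not separate and the share rests in part on them. Around LOC_Os09g36680, 6 of 10 tested loci were higher and 1 lower, around LOC_Os02g29160 3 of 4 were higher, around LOC_Os02g46190 2 of 10, and around LOC_Os10g26240 1 of 3. The largest differences around LOC_Os02g46190 and LOC_Os10g26240 were those of the direct neighbours, and most loci around LOC_Os02g46190 were not called.

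**Figure D4:**
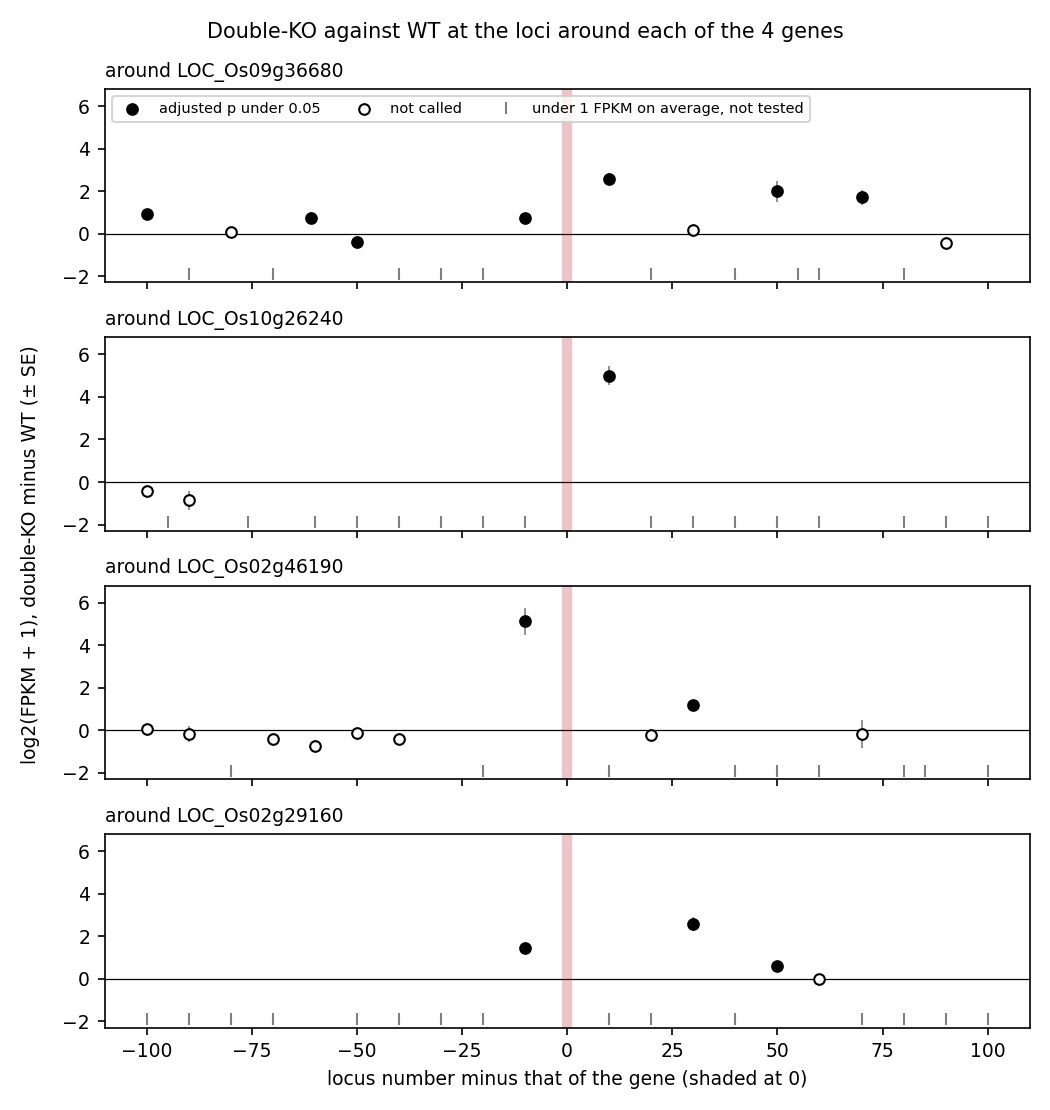
Difference in log2(FPKM + 1), double-KO minus WT with its SE, for the tested loci within 100 locus numbers of each of the 4 genes, against the locus number minus that of the gene. Filled points passed limma at an adjusted p under 0.05, open points did not, ticks mark loci under 1 FPKM on average that were not tested, and the filled points at 10 numbers or less from the shaded genes are the 5 direct neighbours, at log2 differences of 0.72 to 5.13.

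Markers of organs and states that a culm sample could also hold were set beside the 4 genes, from 6 lists of genes with published rice names. None of the listed genes was among the 4. Over all genes tested in double-KO against WT, 20.1% were higher and 27.3% lower, with a median log2 difference of -0.1. In that comparison 3 of 5 tested genes of the MADS-box list were higher and 0 lower (list of 16, median log2 0.76). Of 4 tested anther and tapetum genes, 3 were higher and 0 lower (list of 12, median 0.8). Of the 3 MADS-box calls, that of MADS18 (log2 0.76) was lost without double-KO replicate 1 or 2, without WT replicate 3, and under 3 other alternatives. MADS16, a stamen identity gene, averaged 96.5 FPKM in double-KO and 26.6 in WT (log2 1.85, SE 0.22, limma adjusted p = 8.1e-05), and MSP1, a receptor kinase that limits sporogenous cells, 9.12 in double-KO and 2.4 in WT (log2 1.58, SE 0.23, limma adjusted p = 0.00025). The summed FPKM of the MADS-box list was 871.1 to 896.3 in double-KO, 673.7 to 774.7 in TAC4-KO, 663.9 to 842.3 in TAC4L-KO and 385.8 to 621.5 in WT. That of the anther list was 13.9 to 14.7 in double-KO, 9.59 to 13.9 in TAC4-KO, 8.59 to 9.86 in TAC4L-KO and 6.19 to 6.46 in WT. MSP1 made the largest part of the anther sum in double-KO. UDT1 and CYP703A3, the other anther genes called, averaged 2.175 and 1.573 FPKM there and 0.6084 and 0.6655 in WT. GAMYB, tested but not called, averaged 1.31 FPKM in double-KO and 2.23 in WT (log2 -0.48, limma adjusted p = 0.054). Of the MADS-box and anther lists, 3 and 5 genes were listed at 0 in all double-KO libraries. The 3 MADS-box calls were MADS14, MADS16 and MADS18, all of them already expressed in WT culms (MADS18 at 56.9 FPKM). MADS14 averaged 584.7 FPKM in double-KO and 336.5 in WT, the largest part of the summed FPKM. The MADS-box genes that were not tested averaged between 0 and 0.725 FPKM (MADS2) in double-KO, with MADS1 at 0.0495, MADS58 at 0.0311, and MADS3 and MADS7 at 0. Against the single mutants, the counts of genes called higher were 1 of 5 MADS-box genes against TAC4-KO (median 0.23) and 2 of 5 against TAC4L-KO (median 0.24), and limma called 0 of 4 anther genes against TAC4-KO (1 at an unadjusted p under 0.05, median 0.02) and 1 of 4 against TAC4L-KO (median 0.22), with 0 lower in each.

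For flowering and panicle branching, limma called 2 of 7 tested genes higher in double-KO than in WT and 1 lower (list of 20, median log2 -0.34). It called 1 of 3 tested seed storage genes higher and 0 lower (list of 15, median 0.91), and 0 of 2 defence genes (list of 15, median 0.15), with 0 at an unadjusted p under 0.05. Of 10 tested root and mineral uptake genes, 3 were higher, YSL2 among them (log2 2.09, SE 0.3, limma adjusted p = 0.00026), and 4 lower (list of 25, median -0.3). Of those 7, NAS3 and AMT1;1 lost their calls under several alternatives and IRT1 under quantile normalization. PT8, a phosphate transporter, averaged 34.9 FPKM in double-KO and 317.8 in WT (log2 -2.98, SE 0.56, limma adjusted p = 0.0014). Summed over the root list, levels were 79.7 to 101.9 FPKM in double-KO, 45.4 to 100.6 in TAC4-KO, 79.5 to 330.3 in TAC4L-KO and 251.6 to 664.1 in WT. PT8 made the largest part of the WT sum, so the sums do not describe the list as a whole. The part of other organs or cell types in the levels of the 4 genes was not tested.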

How the data were processed

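The deposited values were FPKM, 1 column per library, for 55986 loci and 12 libraries. Per the labels' protocols, the authors isolated and fragmented poly(A) RNA and primed first strands with random hexamers. HISAT2 was used per the submitters' processing notes. Quantifier, build, annotation and strand: not given in the sources used here.

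The 4 genes were found by the bounds of 5 and 1 FPKM on the deposited values. The 19184 genes averaging 1 FPKM or more were tested on log2(FPKM + 1) with limma 3.58.1 (R 4.3.3), in 1 fit of all 12 libraries with a trended prior and no covariate. P-values were adjusted over these genes by Benjamini-Hochberg, and calls were made under 0.05. Changes on this scale understate those of low genes. Relative depth came from ratios of low FPKM values between libraries, and fragments were taken as whole within a tolerance of 0.15, for values up to 150 fragments. No count test was run. The fit was tested on simulated data.

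The genes, the lists and the tests were chosen with earlier results of these data known. The rule for named genes took all 4, the 5 genes just outside each bound and list genes. The neighbours, their window of 100 locus numbers, the list genes named as examples and the fragment count were chosen after values were seen. List names, and those of TAC4 and TAC4L, were paired with loci from published nomenclature. Of these 105 symbols, the reference (assembly ASM3414082v1) placed 78 on the same chromosome, 24 were not found and 3 were found on another chromosome. TAC4 and TAC4L were among those not found, and CESA4, CESA7 and CESA9 were outside the 105. Apart from these, only genes among the 78 are named. A wrong pair would misname a gene. The alternatives were other bounds, TPM or median-of-ratios scaling, quantile normalization, another pseudocount, other filters, a replicate block, the 2 compared groups alone, and leaving out each library.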

Additional observations from a re-analysis of the deposited data

How the results depend on the processing

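The number of genes found depended on the bounds. The 4 became 17 with a lower bound of 2 FPKM, 1 (LOC_Os09g36680) with 10 FPKM, 2 with an upper bound of 0.5 FPKM, and 2 after scaling each column to TPM, where LOC_Os09g36680 and LOC_Os02g29160 passed 1 TPM in TAC4-KO replicate 3 (1.08 and 1.56 TPM). Leaving out 1 library gave 4 to 7 genes, the highest without double-KO replicate 3. That step only drops a condition that the 4 genes already met, so it could add genes but not remove any of the 4. Turned to TAC4-KO, the bounds gave 1 gene with an upper bound of 2 FPKM and 0 to 1 when 1 library was left out. Turned to WT, they gave 23 with a lower bound of 2 FPKM, 0 with 10 FPKM, 0 and 4 with upper bounds of 0.5 and 2 FPKM, 2 in TPM, and 1 to 16 when 1 library was left out.

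Calls of the 4 genes between groups other than double-KO stayed at 0, except 0 to 1 in TAC4-KO against TAC4L-KO when 1 library was left out. LOC_Os02g29160 in TAC4L-KO against WT changed sign under quantile normalization (0.06) and ranged from -0.27 to 0.08 when 1 library was left out. In TAC4-KO against WT, LOC_Os02g29150 ranged from -0.1 to 0.24 and LOC_Os10g26250 from -0.26 to 0.78 when 1 library was left out. Over all genes, calls ranged from 4334 to 7141 in TAC4-KO against WT (6693 as reported; the lowest without TAC4-KO replicate 3), from 32 to 2168 in TAC4L-KO against WT (1378; the lowest with the 2 compared groups alone) and from 38 to 1361 in TAC4-KO against TAC4L-KO (584; without TAC4L-KO replicate 2 and replicate 3). They ranged from 1441 to 3463 in double-KO against TAC4-KO (2883; the lowest without double-KO replicate 3) and from 4017 to 6834 in double-KO against TAC4L-KO (6714; the lowest without TAC4L-KO replicate 2). List genes called in double-KO against WT were 17 (12 higher, 5 lower), 8 with a filter at 5 FPKM, 22 (12 higher, 10 lower) with no filter, and 14 higher and 3 lower under quantile normalization. Against TAC4-KO they were 6, and 1 with the filter at 5 FPKM. Against TAC4L-KO they were 15, and 5 with that filter. The median of all genes in double-KO against WT was -0.1 as deposited and 0.08 after quantile normalization, and -0.12 and 0.05 against TAC4-KO, -0.2 and 0.03 against TAC4L-KO. Window loci called higher ranged from 10 to 15. The causes were not tested.

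Replicate numbers did not pair the libraries in a steady way: deviations of same-numbered TAC4-KO and WT libraries correlated at 0.0554, -0.00116 and 0.135. Correlations ran from -0.427 to 0.268 for TAC4-KO and TAC4L-KO. They ran from -0.301 to 0.178 for TAC4L-KO and WT, and from -0.134 to 0.104 for double-KO and WT. With the replicate block, 0 of the 4 genes were called in each of the 3 comparisons, and 15 list genes were called in double-KO against WT.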
